A study of Procambarus clarkii with 12 samples.

Results

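Gene clusters with their lowest level at the highest cadmium dose were described in RNA-seq libraries of the hepatopancreas of male red swamp crayfish (Procambarus clarkii). A gene cluster is the unit under which the deposited tables list reads. Of 176325 clusters, 12004 had a mean over the 12 libraries of 5 to under 1000 CPM (the estimated count of a cluster over the total of its library, times 1000000). From these, 153 members were chosen by their measured levels. The highest of the 3 libraries at 10 mg/L had to lie below the lowest of the other 9, and the mean log2(CPM + 1) of those 9 had to exceed that at 10 mg/L by at least 1. Clusters whose 3 controls all lay above, or all below, the 9 cadmium libraries were left out, which removed 5 clusters. Each had its controls above, the only way open once the 10 mg/L libraries lie below all others.

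The groups were male crayfish without cadmium (0 mg/L, the controls) and male crayfish with 2, 5 or 10 mg/L cadmium, each for 72 h and each with 3 libraries. Whether each library came from 1 animal or several is not stated, and p-values therefore reflect the spread from library to library, part of which may be technical. Totals were 19490723 to 21160462 estimated counts per library in the controls, 15835744 to 17480371 at 2 mg/L, 19011151 to 21653867 at 5 mg/L and 16083833 to 16880989 at 10 mg/L. Replicate 3 at 10 mg/L had the fewest clusters with at least 1 count, 83894, against 87566 to 106335 in the other libraries. The number of members changed strongly when a single 10 mg/L library was left out. With replicate 3 left out 397 clusters met the rule, 143 of the 153 members among them, and with replicate 1 left out 301 did, 145 of the members among them. Without replicate 2 it was 224, with 134 of the members. With fewer 10 mg/L libraries to lie below the others the rule is easier to meet, so part of these rises is by construction.

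The crustacean hepatopancreas is the digestive gland. Its cells secrete digestive enzymes, absorb and store lipid and glycogen, and take up and detoxify metals. Cadmium is a non-essential metal that binds thiol groups, and animal cells hold it chiefly with metallothioneins and glutathione. The tables pair no identifier with a gene name, so no role can be given to a member, and markers of hepatopancreas cell types could not be applied. No sequence was available for the members. In tissue RNA, fewer cells of a type and less RNA per cell cannot be told apart.

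All 12 libraries of every member are drawn in the heat map.

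**Figure D1:**
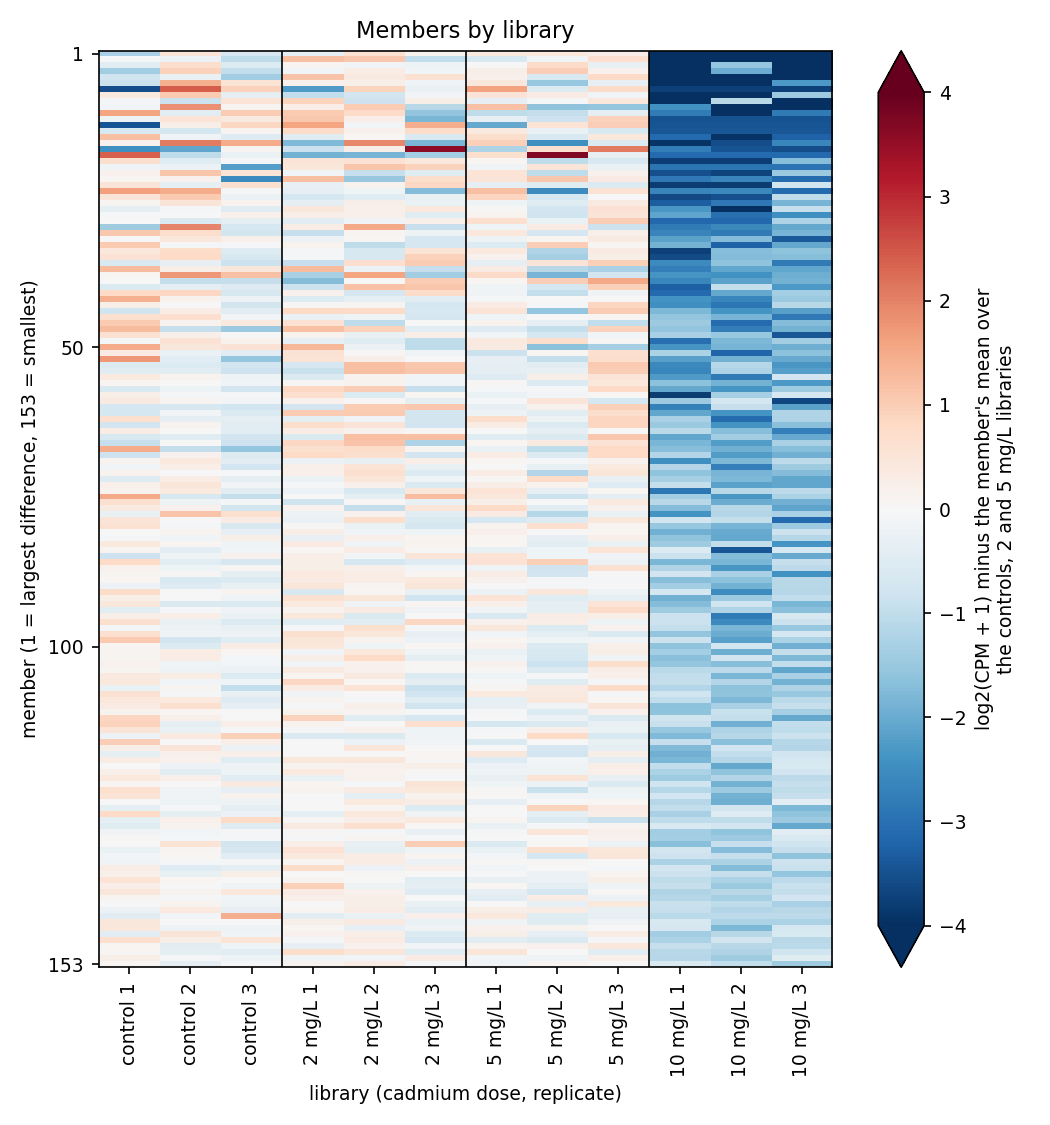
Level of each of the 153 members (rows, ordered by the size of the difference) in each of the 12 libraries (columns). Colour gives log2(CPM + 1) minus the member's own mean over the 9 libraries of the controls, 2 and 5 mg/L, and values beyond 4 in size are drawn in the end colours. The 3 columns at 10 mg/L are blue in every row, as the rule requires.

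Together the members held 0.671%, 0.778% and 0.529% of all counts in control replicates 1, 2 and 3, and 0.816%, 0.858% and 0.708% in the 2 mg/L replicates. At 5 mg/L they held 0.684%, 0.603% and 0.831%, and at 10 mg/L 0.163%, 0.181% and 0.217%. The control mean was 0.659% ± 0.125. Means of 0.794% ± 0.0777, 0.706% ± 0.116 and 0.187% ± 0.0275 belonged to 2, 5 and 10 mg/L (SD, n = 3 each). The controls, 2 and 5 mg/L overlapped in this share, and the 10 mg/L libraries lay below them all. The low share at 10 mg/L was fixed by the choice of members and is a description.

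The difference that chose the members, the mean log2(CPM + 1) of the other 9 libraries minus that of 10 mg/L, had a median of 1.65 and reached 6.50. It was under 2 in 99 members, 2 to under 3 in 35 and at least 3 in 19. Over all 12004 clusters of the same abundance its median was -0.01. Of those 12004 clusters, 280, or 2.33%, had all 3 libraries at 10 mg/L below the other 9. That share belongs to the rule, and nothing is read from it. Under the same rule with other groups in place of 10 mg/L, 62 clusters were lowest and 113 highest at 2 mg/L, and 25 were lowest and 32 highest at 5 mg/L. At 10 mg/L, 62 were highest.

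For many members the gap between the groups was narrow. Over the members with counts at 10 mg/L, the lowest of the 9 libraries exceeded the highest at 10 mg/L by a median of 1.31 times. The gap was at least 2 times in 22 members, the 7 with no counts at 10 mg/L included. The narrowest gap of a member was 1.0003 times, and the nearest cluster outside had 0.997. The difference just inside its limit was 1.001 and just outside 0.987, and the mean level just inside was 5.10 CPM and just outside 4.88 CPM. A further 166 clusters met every criterion except the lower limit on the mean, and 6 every criterion except the upper one.

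Relative to its own mean over the 9 libraries, the median member lay between -0.25 (5 mg/L replicate 2) and 0.16 (2 mg/L replicate 2) on the log2 scale in those 9 libraries. At 10 mg/L it lay at -1.61, -1.81 and -1.49 in replicates 1, 2 and 3. The same median over all 12004 clusters was 0.18, 0.09 and -0.20 in these 3 libraries. By CPM, replicate 3 was thus the lowest of the 3 for clusters in general and the least low for the members. The TMM scaling factors of replicates 1, 2 and 3 were 1.15, 1.11 and 0.807, and a lower factor raises a library relative to CPM. These medians and the ranks below were not retaken under TMM scaling, so the contrast holds for CPM only. Ties at 0 left 7 members without a highest library and 12 without a lowest one. Of the rest, replicate 3 was by CPM the highest in 62 members and the lowest in 33. Over all 12004 clusters it was by CPM the highest in 26.1% and the lowest in 46.2%. Replicate 2 was the lowest in 69 members and replicate 1 in 39. The part of the scaling, or of the low cluster number of replicate 3, in these values was not tested.

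**Figure D2:**
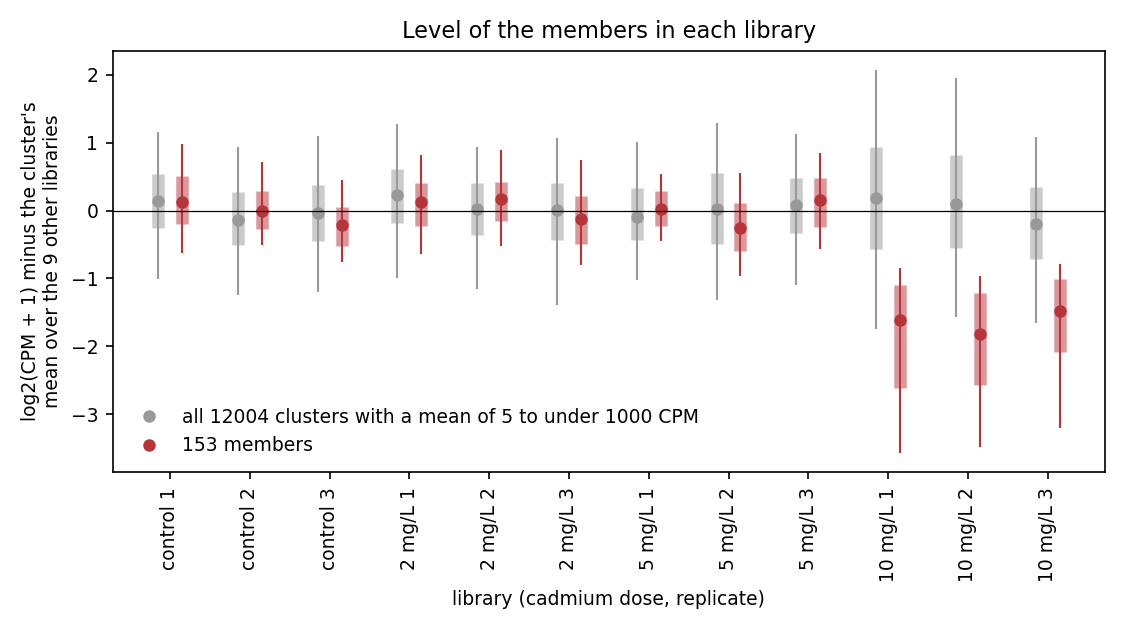
Levels in each library for the 153 members (red) and for all 12004 clusters with a mean of 5 to under 1000 CPM (grey), as log2(CPM + 1) minus each cluster's mean over the 9 libraries of the controls, 2 and 5 mg/L. Points are medians, thick bars the middle 50% and thin lines the middle 80% of clusters; the red medians at 10 mg/L are -1.61, -1.81 and -1.49.

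The member with the largest difference was Cluster-27942.80219. It had 95.3, 337 and 146 CPM in control replicates 1 to 3, 180, 357 and 261 CPM at 2 mg/L and 306, 315 and 283 CPM at 5 mg/L. At 10 mg/L it had 0, 14.0 and 0.178 CPM, so that replicate 2 kept a level the other replicates lacked. The controls, 2 and 5 mg/L overlapped, with means of 193 ± 128, 266 ± 88.6 and 302 ± 16.5 CPM, against 4.73 ± 8.04 CPM at 10 mg/L (SD, n = 3 each). The mean of the 9 libraries was 53.6 times that at 10 mg/L. This ratio rests on 10 mg/L replicate 2: without it the mean at 10 mg/L is 0.0889 CPM and the ratio 2853.

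Cluster-27942.86978 had the second largest difference, 5.17, and no counts in any library at 10 mg/L. Its levels were 33.8, 29.9 and 17.0 CPM in the controls. It stood at 83.0, 75.8 and 17.4 CPM with 2 mg/L cadmium, and at 22.5, 32.7 and 56.2 CPM with 5 mg/L. In the 3 other groups the libraries overlapped, and 2 mg/L replicate 3 lay with the lowest control. Against a floor of 3 counts over the 10 mg/L group, which is 0.0608 CPM, the level at 10 mg/L was lower than in the controls by at least 446-fold. This floor covers counting error only.

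In all, 7 members had no counts in any library at 10 mg/L, 5 had none in 2 of the 3 libraries and 14 had none in 1. The rule allows no member a 0 in the other 9 libraries, so the absence of zeros there is no result. Against the same floor the 7 members were lower at 10 mg/L than in the controls by at least 122-fold in one and at least 511-fold in another. The upper value rests on control replicate 2, at 69.6 CPM against 0.145 and 24.0 CPM in the other controls, and without that library it is at least 199-fold. One of the 7 met the rule by an estimated count of 0.01: it was at 0.000473 CPM in control replicate 1 and at 1.64 to 31.7 CPM in the other 8 libraries. Of the 153 members, 3 had fewer than 10 counts in some library outside 10 mg/L.

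The next pair of named clusters was taken by another rule, the smallest p for a higher level among the controls, 2 and 5 mg/L, and both also had no counts at 10 mg/L. Cluster-27942.65249 had 43.9, 3.31 and 6.15 CPM in the controls. It stood at 1.32, 1.38 and 2.35 CPM with 2 mg/L cadmium, and at 12.3, 113 and 5.91 CPM with 5 mg/L. Its 3 libraries at 2 mg/L lay below every control and every 5 mg/L library, and 5 mg/L replicate 2 lay far above the rest. Without that library the mean at 5 mg/L is 9.12 CPM in place of 43.7 CPM. From 2 to 5 mg/L its log2 fold change was 4.63 with standard error 1.40, which did not pass edgeR's quasi-likelihood test (adjusted p = 0.822). DESeq2 called it, with a log2 fold change of 4.62 (DESeq2 adjusted p = 0.0226).

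Cluster-27942.63033 had 10.5, 15.5 and 6.66 CPM in the controls. It stood at 42.8, 24.5 and 29.1 CPM with 2 mg/L cadmium, and at 21.7, 12.2 and 32.5 CPM with 5 mg/L. All 3 libraries at 2 mg/L lay above all 3 controls, and the 5 mg/L libraries overlapped both groups. The log2 fold change from the controls to 2 mg/L was 1.45 with standard error 0.50 (edgeR adjusted p = 0.762, DESeq2 adjusted p = 0.133), so neither tool called it.

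**Figure D3:**
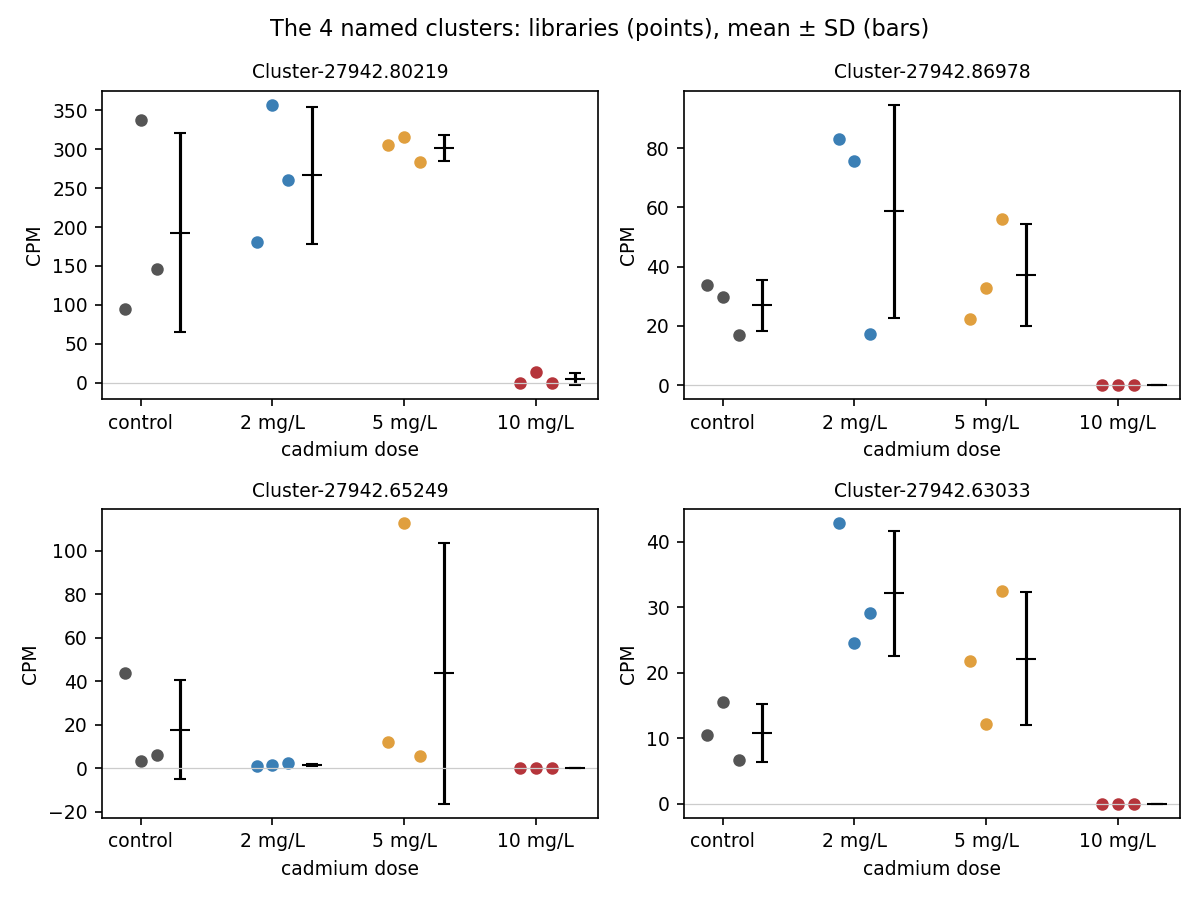
CPM of the 4 named clusters in each library (points) by cadmium dose, with the mean ± SD of the 3 libraries of a group (bars at the right of each group; an SD larger than the mean reaches below 0). Cluster-27942.80219 keeps 14.0 CPM in 1 library at 10 mg/L, and the other clusters have 0 in all 3.

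Among the other members with high levels, the highest mean FPKM (reads scaled by cluster length and library depth, the scale on which clusters of different length can be compared) was 1155. The length implied by that member's counts and FPKM was 230 bases, and so short a length leaves its level per length uncertain. Its libraries had 415, 513 and 212 CPM in the controls. This member stood at 289, 196 and 452 CPM with 2 mg/L cadmium, and at 405, 132 and 389 CPM with 5 mg/L. At 10 mg/L it had 22.3, 94.4 and 101 CPM, and its other groups overlapped throughout. The member with the highest mean CPM, 430 CPM and 135 FPKM, had 329.6 to 685 CPM in the 9 libraries and 180.3, 221 and 316 CPM at 10 mg/L. Its difference, 1.04, lay close to the limit of the rule. Of the 11 members with a mean of at least 100 CPM, 6 had group means at 0, 2 and 5 mg/L that lay within 2 times of each other.

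The steadiest member over the 9 libraries lay between 20.5 and 24.6 CPM in all of them, a ratio of 1.20 from highest to lowest. At 10 mg/L it was at 7.90, 7.22 and 14.0 CPM, below the narrow band of the other groups. Far from steady, though not the most spread, a member of mean 150 CPM had 14.3, 18.6 and 89.7 CPM in the controls. It stood at 45.5, 97.5 and 992 CPM with 2 mg/L cadmium, and at 34.2, 130.2 and 349.5 CPM with 5 mg/L. Its level at 10 mg/L was 11.2, 6.67 and 6.22 CPM, close to the lowest control. Over all members the ratio of the highest to the lowest of the 9 libraries had a median of 2.92. It was under 2 in 22 members, 2 to under 5 in 104, 5 to under 10 in 12 and at least 10 in 15.

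The rule treats the 2 and 5 mg/L libraries alike, so levels at these doses could be tested against each other. Of the 153 members, all of which passed the low-count filter, 0 were called between 5 and 2 mg/L by edgeR's quasi-likelihood test (smallest adjusted p of a member 0.822), where 0.0105% of the 57151 clusters tested were called. An unadjusted p under 0.05 was found in 1 member, Cluster-27942.65249, against 6.01% of the tested clusters in the abundance range of the members. DESeq2 called that 1 member, against 2.04% of clusters. The median log2 fold change of the members was -0.12, with 58 above 0 and 95 below, and over all clusters tested the median was 0.07. A member's log2 fold change had a median standard error of 0.52, and it exceeded 1 in either direction in 6 members. The standard error takes its spread from all 12 libraries, the 10 mg/L ones that chose the members among them. For Cluster-27942.80219 it was 1.47. Fitting only the 6 libraries compared, which leaves 10 mg/L out, also called 0 members. The rule keeps clusters whose 9 libraries all lie above those at 10 mg/L, which limits their spread among these libraries.

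The lower doses were also set against the controls. For 2 mg/L, edgeR called 0 members, against 0.00875% of all clusters, and 4 members had an unadjusted p under 0.05 (3 higher, 1 lower), against 7.65% in the abundance range. Beside the other fits below, the clusters counted are tested clusters of all levels, not those of the abundance range. The number of members with such a p moved with the fit. Under DESeq2 it was 8 higher and 4 lower members, where 2429 higher and 3345 lower of 54834 clusters had such a p. Fitting only the 6 libraries compared gave 4 higher and 7 lower members, where 1269 higher and 1662 lower of 39934 clusters had one. For 5 mg/L, edgeR called 0 members and 0% of all clusters, and 1 member had an unadjusted p under 0.05, a lower one, against 6.68% in the abundance range. Under DESeq2 it was 1 higher and 6 lower members, where 2646 higher and 2390 lower of 55943 clusters had such a p. DESeq2 called 0 members in either comparison, against 2.36% of clusters at 2 mg/L and 1.80% at 5 mg/L. Both comparisons share the 3 controls, and the rule touched them by leaving out clusters with all controls above the cadmium libraries. The median standard error of a member was 0.53 at 2 mg/L and 0.52 at 5 mg/L. Far larger changes also went uncalled by edgeR: the members' log2 fold changes at 2 mg/L against the controls ran from -3.31 to 3.18 (smallest adjusted p of a member 0.762).

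On the scale of mean log2(CPM + 1), the median member differed from the controls by 0.03 at 2 mg/L and by -0.02 at 5 mg/L. Over all 12004 clusters in range these medians were 0.10 and 0.04. The controls exceeded 10 mg/L by a median of 1.55, 2 mg/L did so by 1.68 and 5 mg/L by 1.62. The median at 5 mg/L thus lay near that of the controls. The means lay in the falling order controls, 2 mg/L, 5 mg/L in 35 members, or 22.9%, against 14.6% of clusters in range. The order 2 mg/L, 5 mg/L, controls held in 39 members, or 25.5%, against 21.9%, and controls, 5 mg/L, 2 mg/L in 23, or 15.03%, against 13.5%. The other orders held in smaller shares of members than of clusters in range. These were 2 mg/L, controls, 5 mg/L in 21 members (13.7% against 18.6%), 5 mg/L, 2 mg/L, controls in 20 (13.1% against 17.1%) and 5 mg/L, controls, 2 mg/L in 15 (9.80% against 14.3%). In 123 of the 153 members the orders rank means that lie within 2 times of each other. The orders were not retaken under TMM scaling, and no dose trend was tested.

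Members were also grouped by their levels outside 10 mg/L. In 123 of them the highest of the 3 group means was under 2 times the lowest (80.4% of members, 62.2% of clusters in range), and these were called even. The rule itself favours members that are level over these 9 libraries, and nothing is read from the share. Their median member had 15.3 CPM in the controls, 15.9 CPM at 2 mg/L, 14.9 CPM at 5 mg/L and 4.34 CPM at 10 mg/L. The difference that chose them had a median of 1.46 in this group.

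In 15 members, 9.80% against 13.5% of clusters in range, the mean at 2 mg/L was the highest and at least 2 times the lowest. The medians of their group means were 25.7 CPM in the controls, 58.7 CPM at 2 mg/L, 37.8 CPM at 5 mg/L and 8.03 CPM at 10 mg/L. In 11 members, 7.19% against 11.7%, the controls were the highest, with medians of 26.5, 12.6, 20.7 and 1.82 CPM from 0 to 10 mg/L. Under scaling by TMM this group had 18 members, the 11 included. The remaining 4 members, 2.61% against 12.6%, were highest at 5 mg/L, with medians of 10.8, 8.19, 26.9 and 0.928 CPM in the same order. Since the rule left out clusters with every control above every cadmium library, the group highest in the controls was cut short by it.

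**Figure D4:**
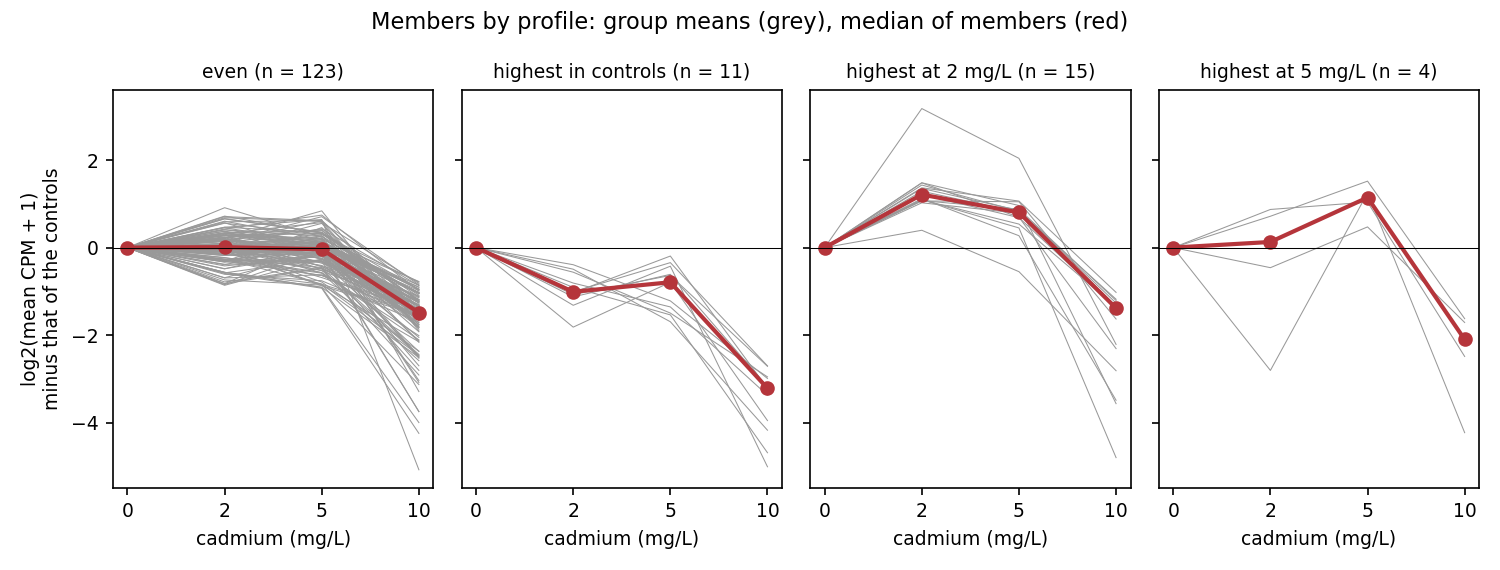
Group means of the members by profile, as log2(mean CPM + 1) minus that of the controls, at 0, 2, 5 and 10 mg/L cadmium (doses evenly spaced). Grey lines are members and red lines their median. By definition, the group means of the 123 even members lie within 2 times of each other up to 5 mg/L. The rule places all members lower at 10 mg/L.

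The identifiers of all 153 members bore the first number 27942, as did 99.2% of clusters in range. Estimated counts that are not whole can arise where reads are divided among similar sequences, and the median member had 8.33% whole values among its nonzero counts, against 0% for clusters in range. The length implied by counts and FPKM had a median of 2268 bases, with quartiles of 1020 and 4142, against a median of 1828 bases for clusters in range. The shortest implied length was 31.3 bases and the longest 16176 bases, so the level per length of the shortest members is uncertain.

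Members were compared for how they varied together. For each pair of members the correlation of log2(CPM + 1) over the 9 libraries was taken after removing the means of the 3 groups. Neither the group means nor the 10 mg/L libraries entered r. The rule still chose the members by these 9 libraries, which limits their spread, and clusters in range were not so chosen. All values share these 9 libraries and their depths, and are given as a description. The median r was 0.12 over 11628 pairs, and r was at least 0.8 in 3.29% of them. Over all pairs of clusters in range the median was 0.05, and 2.27% reached 0.8. Of 12 pairs whose second numbers differed by at most 10, r was at least 0.8 in 6, with a median of 0.76. For such near numbers among all clusters in range the median was 0.06, and 4.26% reached 0.8. Whether clusters with near numbers share reads was not tested.

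Average linkage at a mean r of 0.8 placed 66 members in 13 sets of at least 4, and 87 in none. How many clusters in range such linkage would place in sets was not computed, so nothing is read from these counts. The cut itself fixes a high r within a set. One set held 7 members with implied lengths of 66.2 to 629 bases and a median r of 0.91. Its summed level was 214, 215 and 185 CPM in the controls. It stood at 179, 668 and 681 CPM with 2 mg/L cadmium, and at 251, 307 and 655 CPM with 5 mg/L. The 3 high libraries, 2 mg/L replicates 2 and 3 and 5 mg/L replicate 3, were thus spread over both lower doses, and the controls were alike. At 10 mg/L the sum was 46.3, 136 and 62.0 CPM.

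Another set of 5 members, with implied lengths of 812 to 10099 bases, had its high libraries elsewhere. The sum was 738, 1126 and 745 CPM in the controls. It stood at 2281, 2526 and 631 CPM with 2 mg/L cadmium, and at 1147, 1164 and 1949 CPM with 5 mg/L. Here 2 mg/L replicate 3 was the lowest of the 9, where it had been the highest in the set of 7. At 10 mg/L the sum was 292, 231 and 472 CPM. This set included Cluster-27942.86978 and a second member with no counts at 10 mg/L, while its other members kept counts in every library there.

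A set of 5 with implied lengths of 31.3 to 634 bases held the 3 members with the highest mean FPKM, 1155, 776 and 713. Its sum was 970, 1114 and 450.2 CPM in the controls. It stood at 673, 424 and 1096 CPM with 2 mg/L cadmium, and at 849, 319 and 797 CPM with 5 mg/L. Replicate 3 of the controls and replicate 2 at 2 and at 5 mg/L were the low libraries of their groups. In the 10 mg/L libraries it came to 68.3, 213 and 218 CPM, with replicate 1 the lowest.

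A further set of 7 had implied lengths of 1940 to 7206 bases. Its sum lay between 75.9 and 95.5 CPM in the controls and at 2 mg/L, and was 85.4, 47.3 and 114 CPM at 5 mg/L. In the 10 mg/L libraries it came to 26.1, 23.7 and 22.9 CPM, the closest agreement among the 10 mg/L libraries of these 4 sets. The sets were chosen after their values were seen and carry no test.

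**Figure D5:**
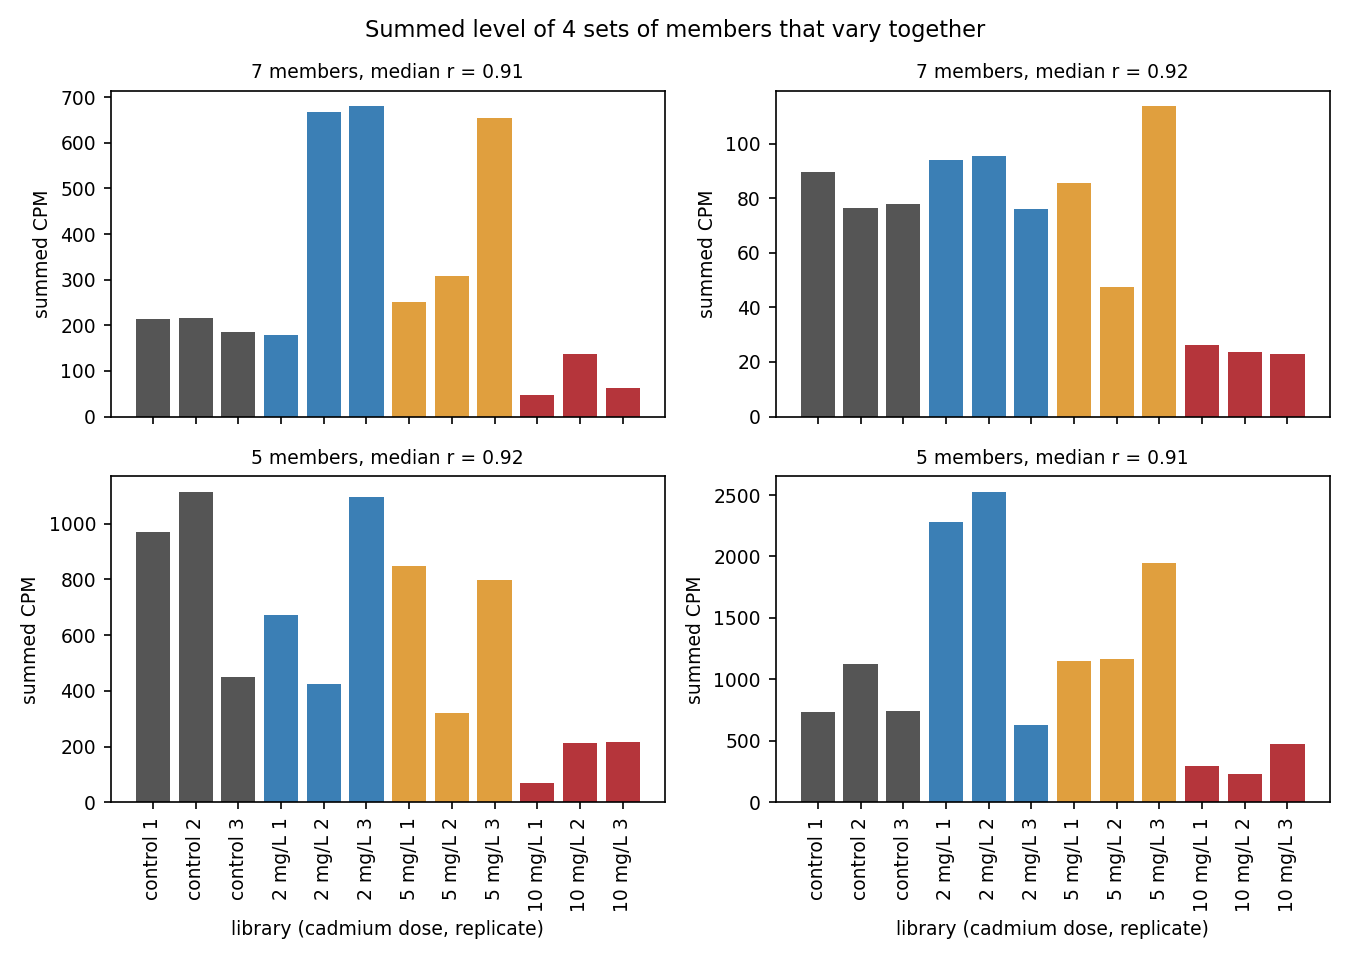
Summed CPM of 4 sets of members that vary together, in each library (bars, coloured by cadmium dose). The set of 7 at the upper left is high in 2 mg/L replicates 2 and 3 and 5 mg/L replicate 3, and the set of 5 at the lower right in 2 mg/L replicates 1 and 2 and 5 mg/L replicate 3.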

How the data were processed

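Per the labels' protocols, RNA of frozen hepatopancreas was isolated with Tri Reagent and made into Illumina libraries. The authors deposited, per the file headers, unnormalized estimated counts for each gene cluster, and FPKM, scaled by cluster length and depth. For assembly, alignment and counting, tools and filters were not given in the sources used here. No identifier matched a name in the RefSeq gene table.

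CPM was computed from the estimated counts over all clusters of a library. Before testing, counts were rounded, passed through filterByExpr of edgeR 4.0.16 with a minimum count of 10 and a minimum total of 15 (57151 clusters and all 153 members kept) and scaled by TMM. The quasi-likelihood fit took the 12 libraries together, one mean for each dose, with Benjamini-Hochberg adjustment over all clusters tested and calls at an adjusted p under 0.05. The F statistic and the fold change gave each standard error. The spread behind it includes the 10 mg/L libraries, whose values chose the members. The median biological coefficient of variation of the members was 0.553. The fit and the rule were tested on simulated data. Contrasts with 10 mg/L were not tested, since they chose the members. Implied length was CPM over FPKM, the median over libraries with at least 1 FPKM.

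At most 4 identifiers were to be named: the 2 largest differences, and the 2 smallest p for a higher level among the controls, 2 and 5 mg/L. Other members were singled out after their values were seen, as were the sets. The members and lists were chosen with earlier results of these data known. Alternatives were DESeq2 1.42.0, its size factors, library size alone, no low-count filter, a fit of only the 6 libraries compared, a replicate block, each library left out, and other limits, pseudocounts and units for the rule. The fits ran in R 4.3.3 and the other steps in Python 3.11.15 with pandas 2.3.3 and scipy 1.17.1. Library totals, given with the results, were 15835744 to 21653867 counts, and floors cover counting error only.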

Additional observations from a re-analysis of the deposited data

How the results depend on the processing

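The number of members was 145 with TMM scaling (119 of the 153 among them), 129 with FPKM in place of CPM (116 among them) and 160 with a pseudocount of 0.5 (all 153 among them). A mean of at least 10 CPM left 96 members and a difference of at least 2 left 54, both by construction. With each library left out in turn it ran from 152 to 397, the highest values being 397 and 301 without 10 mg/L replicates 3 and 1, and 134 to 152 of the members were kept. Leaving out a 10 mg/L library eases the rule, so part of those rises is by construction. The median difference, 1.65, ran from 1.56 to 1.81 over its alternatives. With the even limit at 1.5 times, 76 members were even, 33 highest in the controls, 29 at 2 mg/L and 15 at 5 mg/L.

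Members called by edgeR were 0 in each of the 3 comparisons among the controls, 2 and 5 mg/L, with unadjusted p under 0.05 in 4, 1 and 1 of them for 2 and 5 mg/L against the controls and 5 against 2 mg/L. The number was 0 with every library left out, with DESeq2 size factors, library size alone, no low-count filter and only the 6 libraries compared. DESeq2 called 1 member for 5 against 2 mg/L and 0 in the other comparisons. With the replicate block the calls were also 0. The numbers did not pair the samples: over 18 same-numbered pairs of libraries r ran from -0.067 to 0.050, and 4 of the 12 libraries were most correlated with a library of equal number. At 10 mg/L, 21 to 25 members per library had fewer than 10 counts, and there depth limits the size of the difference.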
